A study of Mus musculus with 16 samples.

Results

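Skin lacking both receptors for tumour necrosis factor (TNF) was compared with wild-type skin after ultraviolet B (UVB) exposure. The comparison used 8 of the 16 RNA-seq libraries of the study, picked by the genotype and treatment in the sample titles. They were 4 libraries of Tnfrsf1a/b KO mice and 4 of WT mice, both given the treatment labelled 3xUVB. All 8 came from the dorsal skin of male mice aged 8 weeks, with the skin labelled telogen, when hair follicles rest. The other 8 libraries, 4 KO and 4 WT controls without UVB, entered the same statistical model and are called KO control and WT control below. The sources used here do not give the strain, the design of the knockout alleles, the UVB dose or the time of sampling. The labels do not say whether libraries of a group are separate animals. P-values therefore reflect only how much these libraries vary, which may be technical.

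TNF is made as a membrane protein by immune cells and keratinocytes and is released on damage. It signals through TNFR1, encoded by Tnfrsf1a and found on most cells, and TNFR2, encoded by Tnfrsf1b and more abundant on immune and endothelial cells. Both lead to NF-kB and stress kinases, and TNFR1 also carries a death domain. In skin, UVB induces TNF, and TNF signalling is known for recruiting leukocytes, for acting on keratinocyte differentiation and for lowering pigment synthesis in cultured melanocytes.

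Reads in genes numbered 18102925 to 23200649 per library over the 8, and 17531 genes with enough reads were tested. Levels are given as CPM, counts scaled to a common library size after normalisation with the trimmed mean of M-values. A gene was called when edgeR's quasi-likelihood test gave it a Benjamini-Hochberg adjusted p under 0.05. Differences are log2 fold changes of KO UVB minus WT UVB, with their standard error. The first principal component of the 8 libraries held 28.3% of the variance and had all 4 WT UVB libraries below 0 and all 4 KO UVB libraries above 0. Of the markers looked up for the cell types of skin, the defining neutrophil gene Ly6g reached at most 0.231 CPM and the B cell gene Ms4a1 at most 0.0498 CPM, and keratinocyte, fibroblast, endothelial, fat, muscle and melanocyte markers were all present. In whole tissue, fewer cells of a type and less RNA per cell cannot be told apart.

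The KO UVB libraries were not alike. Library 3 held 611 CPM summed over the 16 tested neutrophil genes, against 132 to 170.5 CPM in the other KO UVB libraries and 102.5 to 151 CPM in WT UVB. Library 4 held 2463 CPM summed over 30 stress and wound keratinocyte genes, against 7449 to 8384 CPM in the other KO UVB libraries and 2282 to 3384 CPM in WT UVB. Library 1 was lowest of the KO UVB libraries in its summed monocyte and macrophage genes, at 2849 CPM against 4919 to 6248 CPM in the other KO UVB libraries. Of 27 library measures (depth, read classes and summed cell type lists), none differed between the genotypes at an adjusted p under 0.22 in a two-sided exact permutation test over the 8 libraries, whose smallest possible p is 0.0286. After adjustment over 27 measures, 1 measure alone at that smallest p could not pass 0.05, so the test does not show that the measures were alike. The summed melanocyte list was at that smallest p, at 297 to 330 CPM in WT UVB and 343 to 391 CPM in KO UVB.

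Both targeted genes fell in KO skin after UVB, and transcripts of both remained. Tnfrsf1a read 151, 153, 162 and 140 CPM in WT UVB libraries 1 to 4 and 96.9, 89.3, 105 and 92.0 CPM in KO UVB libraries 1 to 4. No KO UVB library reached the WT UVB range, and the difference was -0.66 ± 0.07 (adjusted p = 0.000152, edgeR). Tnfrsf1b read 51.7, 33.6, 41.7 and 36.3 CPM in WT UVB and 16.7, 15.6, 27.9 and 20.04 CPM in KO UVB. The groups did not overlap, and the difference was -1.02 ± 0.21 (adjusted p = 0.0315, edgeR). The sources used here do not say which part of either gene was removed, so reads outside it can remain in a knockout. The Tnfrsf1a call was kept under every alternative run, while the Tnfrsf1b call was lost when any WT UVB library or KO UVB 2 was left out (adjusted p up to 0.0924).

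After UVB, 150 genes (0.856% of those tested) differed between KO and WT skin, 87 higher in KO (0.496%) and 63 lower (0.359%). With library totals in place of trimmed-mean normalisation the split turned, to 65 higher and 92 lower. The difference went beyond 2-fold for 79 of them. CPM of the genotypes did not overlap for 144 of the 150, while 8.16% of all tested genes did not overlap (4.27% higher in KO and 3.89% lower). The 150 were called on these same UVB libraries, so their lack of overlap is no further support. Without UVB, the same genotype contrast in the 8 control libraries called 297 genes (1.69%), 73 higher (0.416%) and 224 lower (1.28%), and CPM of 7.68% of tested genes did not overlap. The contrasts shared 44 genes, which are 29.3% of the calls after UVB and 14.8% of those without, and 43 of the 44 had the same direction. Tnik, a kinase of the Wnt and stress kinase pathways, was the exception. The other 106 genes were called after UVB but not without it, 66 higher and 40 lower. The interaction, which tests whether the genotype difference itself differed with UVB, called 4 genes (0.0228%), of which Hba-a2 and Tnik were among the 150. For the rest of the 150, a change of the genotype difference with UVB was not shown. The count of 150 rested on single libraries: it was 453 without KO UVB 1 and 475 without KO UVB 4, and 58 to 75 without WT UVB 1, 2 or 4 or KO UVB 2 or 3. DESeq2 called 658 genes and limma voom 1094 on the same counts.

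**Figure D1:**
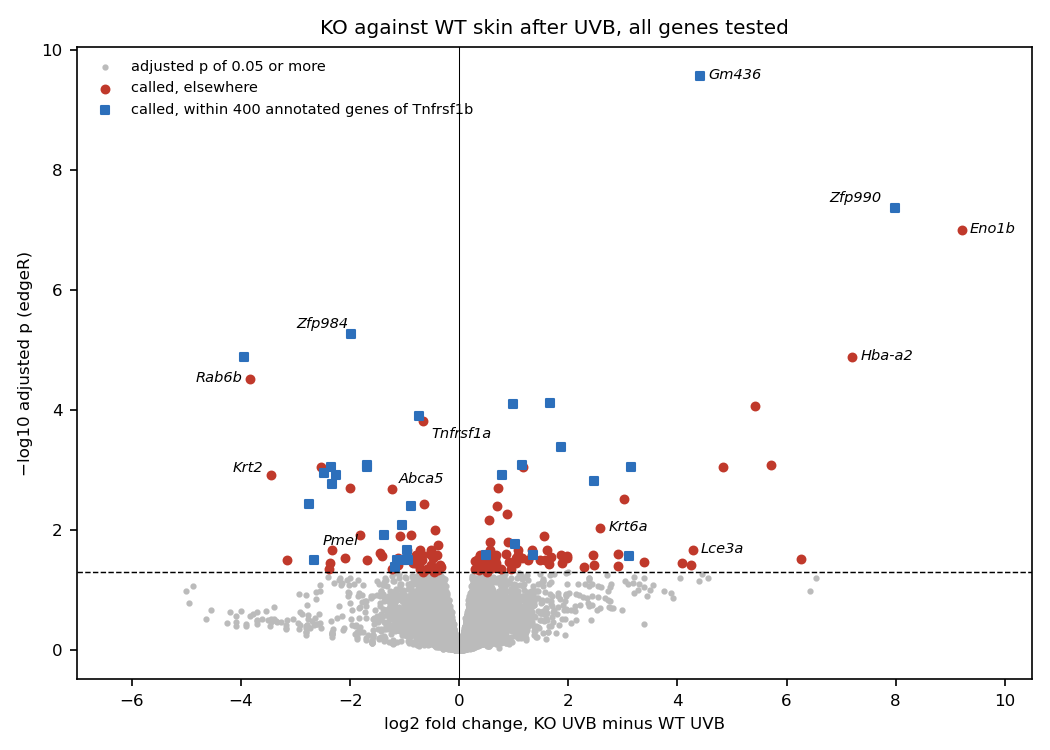
Log2 fold change of KO UVB minus WT UVB (x axis) against the −log10 adjusted p of edgeR (y axis) for the 17531 tested genes. Red circles and blue squares are the 150 called genes, blue for those within 400 annotated genes of Tnfrsf1b, and grey points lie under the dashed line of an adjusted p of 0.05. The smallest adjusted p belonged to Gm436, a neighbour of Tnfrsf1b.

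**Figure D2:**
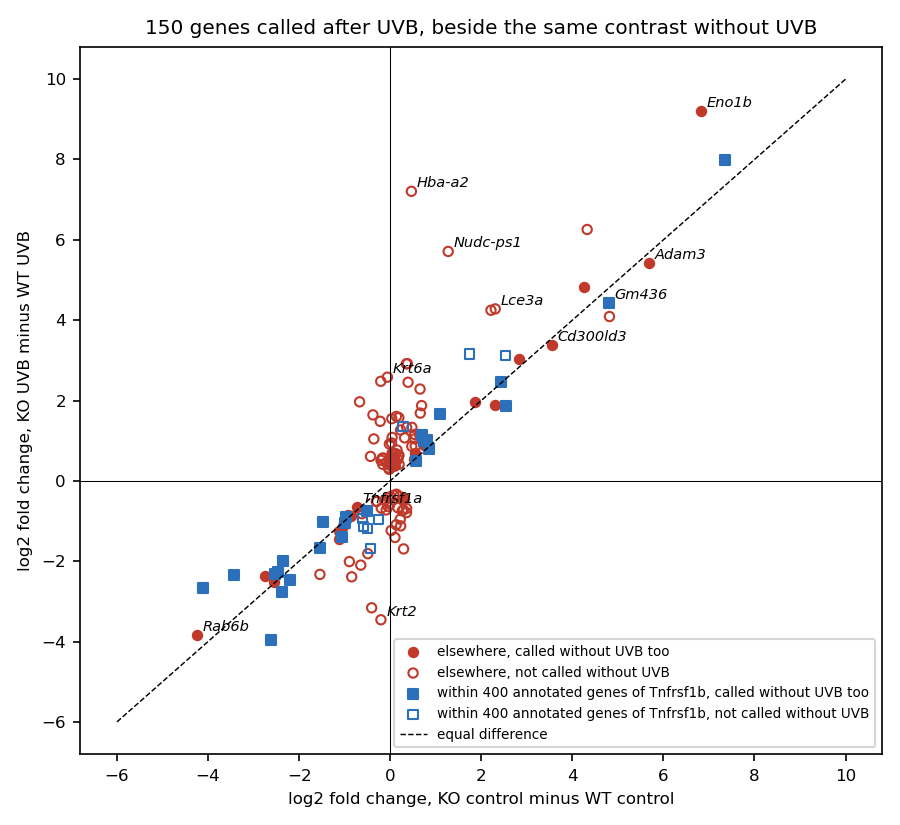
The 150 genes called after UVB, by their log2 fold change of KO minus WT without UVB (x axis) and with UVB (y axis). Filled symbols are the 44 genes called in both contrasts, open symbols the 106 called after UVB alone, and the dashed line marks an equal difference. Most genes near Tnfrsf1b (blue) lie along the line, and Hba-a2, Krt6a and Krt2 lie away from it.

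Genes close to Tnfrsf1b on chromosome 4 made up a large share of the calls. Of the 16 tested genes within 20 annotated genes of it, 6 were called (37.5%), 3 higher and 3 lower, and all 6 were called without UVB too. The share fell with distance, to 14 of 48 within 100 genes (29.2%), 20 of 144 within 200 (13.9%) and 31 of 346 within 400 (8.96%, 13 higher and 18 lower). Of those 31, 23 were also called in the control libraries. Around Tnfrsf1a on chromosome 6, none of 157 tested genes within 200 annotated genes was called after UVB, and 1 of 290 within 400 was (0.345%). Over whole chromosomes, 35 of 1062 tested genes were called on chromosome 4 (3.3%) and 8 of 939 on chromosome 6 (0.852%).

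Gm436 stood out among these neighbours, at 2.91, 3.56, 3.15 and 3.9998 CPM in WT UVB and 94.1, 64.1, 68.8 and 64.3 CPM in KO UVB. It differed by 4.42 ± 0.16 (adjusted p = 2.68e-10, edgeR), beside 4.80 in the control libraries. Zfp990, a zinc finger gene of a large local cluster, had 1 read in all 4 WT UVB libraries together and 382 reads in the KO UVB libraries, at 3.93 to 5.51 CPM (adjusted p = 4.2e-08). Aadacl4, an arylacetamide deacetylase-like gene, moved the other way, at 179, 216, 155 and 238 CPM in WT UVB and 53.7, 47.2, 30.1 and 24.4 CPM in KO UVB. Its difference was -2.34 ± 0.30 (adjusted p = 0.000886), beside -3.44 without UVB. Among the zinc finger genes, Zfp984 (-1.99) and Zfp991 (-2.26) fell while Zfp990 rose, so genes of this cluster went in both directions. Reads of such near-identical neighbours are hard to assign to a single gene, and their values are uncertain. Farther along, the complement protease gene Masp2 (1.86) and the retinol-binding gene Rbp7 (2.46) rose, beside differences of 2.54 and 2.43 without UVB. Paqr7, a membrane progestin receptor gene 318 annotated genes away, fell from 276 to 414 CPM in WT UVB to 79.1 to 121 CPM in KO UVB. It was called after UVB (-1.68 ± 0.22, adjusted p = 0.000886) and not without it (-0.42, adjusted p = 0.489), although the interaction was not called (adjusted p = 0.13).

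**Figure D3:**
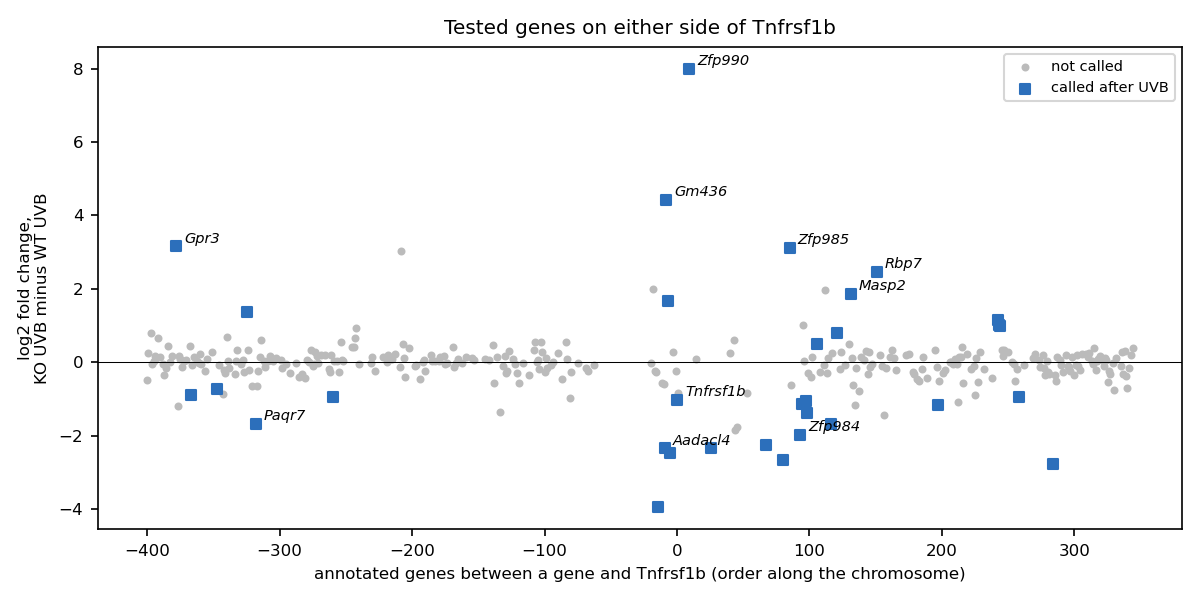
Log2 fold change of KO UVB minus WT UVB (y axis) for tested genes within 400 annotated genes of Tnfrsf1b, placed by their order along the chromosome (x axis, Tnfrsf1b at 0). Blue squares are called genes and grey points are not, and called genes lie on both sides of Tnfrsf1b and in both directions. Zfp990 has 1 read in WT UVB, so the height of its point depends on the model's prior count.

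Genotype differences shared with control skin were also found on other chromosomes. Rab6b, a small GTPase of Golgi traffic on chromosome 9, read 20.4, 17.3, 14.9 and 16.1 CPM in WT UVB and 0.647, 0.399, 0.969 and 2.69 CPM in KO UVB. It fell by 3.83 on the log2 scale (SE 0.35, adjusted p = 3.07e-05), beside a fall by 4.24 without UVB. Cd300ld3, an immune receptor gene of a family with several close copies, rose by 3.39, and Tmem177, a mitochondrial membrane protein gene, fell by 1.12, beside 3.56 and -1.03 in the controls. The Cd300ld3 value rested on WT UVB 2, at 1.71 CPM against 0.0461 to 0.111 CPM in the other WT UVB libraries, and was 6.15 without it. The Cd300ld3 call was lost without WT UVB 1, 3 or 4 or KO UVB 2 or 3 (adjusted p up to 0.0968), and that of Tmem177 without any library but KO UVB 1 or 4 (0.0943). Eno1b, an intronless copy of the glycolytic gene Eno1, had 6 reads over the WT UVB libraries and 57.4, 46.6, 47.1 and 39.1 CPM in KO UVB. Eno1 itself, on chromosome 4, was not called, at 241 to 315 CPM in WT UVB and 187 to 301 CPM in KO UVB (-0.19, adjusted p = 0.548). The alpha globin gene Hba-a2 read 0.0461 to 0.145 CPM in WT UVB and 12.4, 26.9, 7.76 and 7.65 CPM in KO UVB, a difference of 7.21 ± 0.61 (adjusted p = 1.28e-05). In the controls both genotypes held it, at a mean of 13.3 CPM in WT and 18.3 CPM in KO, so the WT UVB libraries were the low ones. Its copy Hba-a1 was present in every UVB library, at 26.8 to 71.5 CPM in WT and 16.6 to 37.7 CPM in KO (-0.61, adjusted p = 0.339). The genes Eno1b, Eno1, Hba-a1 and Hba-a2 have near-identical partners, so reads may have been assigned to the wrong copy.

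In the epidermis, Krt6a, Epgn and Serpinb3b rose in KO skin after UVB. Of 30 tested genes of stressed and wounded keratinocytes, 3 rose (those named) and none fell, beside 0.856% called over all genes. CPM of the genotypes did not overlap for 6 of the 30, all higher in KO. Over all tested genes, 8.16% did not overlap, 4.27% higher in KO. The median of the list was 0.67 with 26 above 0, beside a median of 0.01 over all genes. Krt6a, a keratin of wound-edge and hyperproliferative epidermis, read 208, 190, 231 and 245 CPM in WT UVB and 1624, 1598, 1775 and 237 CPM in KO UVB. KO UVB libraries 1 to 3 were far above WT UVB, and library 4 lay within the WT UVB range. The difference was 2.58 ± 0.43 (adjusted p = 0.00911, edgeR), and 2.93 (adjusted p = 5.11e-07) without KO UVB 4. The call was lost with the 8 UVB libraries alone (adjusted p = 0.0877) and with the macrophage score as a covariate (adjusted p = 0.0574). In the controls Krt6a was at a mean of 117 CPM in WT and 112 CPM in KO. Its partner keratin Krt16 had the same shape, at 157, 197, 219 and 149 CPM in WT UVB and 1169, 1118, 1281 and 201 CPM in KO UVB, and missed the threshold (2.38 ± 0.59, adjusted p = 0.0677). Leaving out KO UVB 4 put it past the threshold (2.72, adjusted p = 0.0128). Krt6b, whose sequence is close to that of Krt6a, read 115 to 171 CPM in WT UVB and 233 to 1799 CPM in KO UVB (3.21, adjusted p = 0.111). Without KO UVB 4, 8 genes of this list rose and the median was 0.92. Krt17, a further stress keratin, differed by 0.40 (adjusted p = 0.332).

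**Figure D4:**
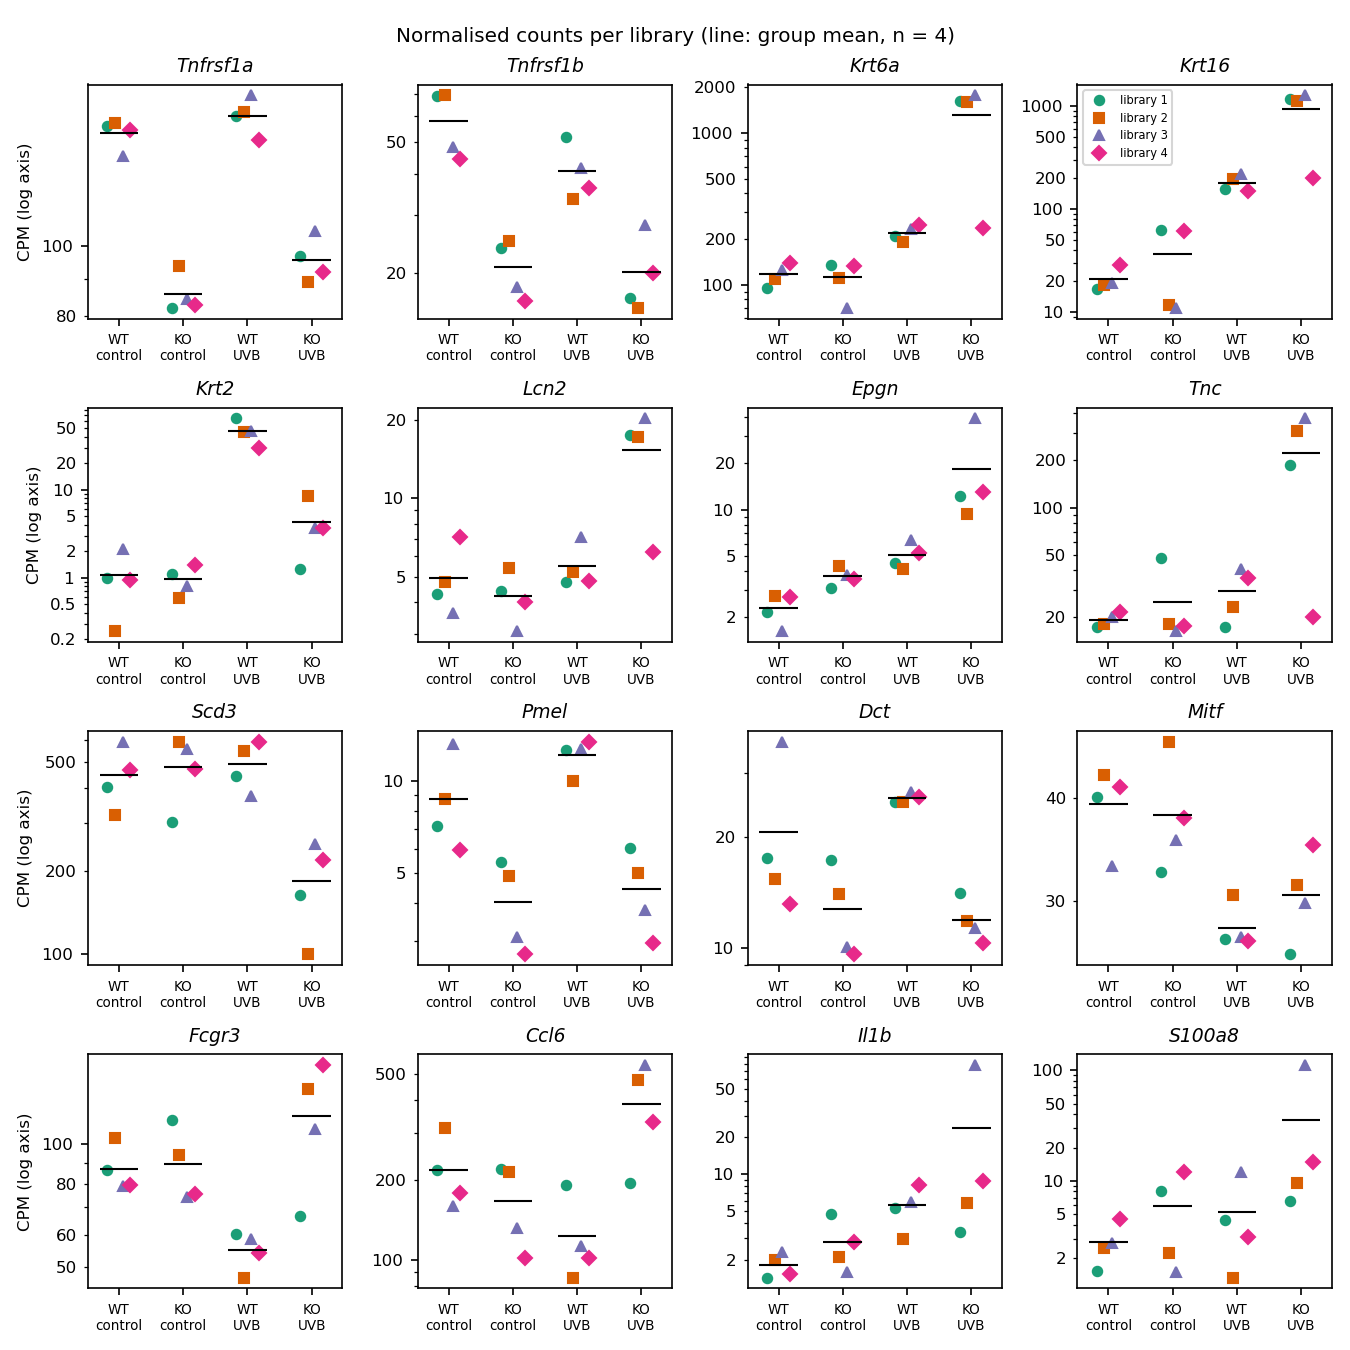
CPM on log axes for 16 genes in the 16 libraries, by group (x axis), with the library number shown by colour and shape and the group mean as a line (n = 4). In KO UVB, library 4 (pink diamond) lies with WT UVB for Krt6a, Krt16, Lcn2 and Tnc, and library 3 (purple triangle) is the highest for Il1b, S100a8 and Epgn. For Scd3, Pmel, Dct and Krt2 no KO UVB library reaches the WT UVB range.

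Beside Krt6a, 6 further genes are described here, drawn from different lists or from none, namely Epgn, Lcn2, Has3, Gsta4, Ctse and Tnc. Epgn, which encodes the epidermal growth factor receptor ligand epigen, read 4.52, 4.13, 6.30 and 5.22 CPM in WT UVB and 12.2, 9.36, 39.3 and 13.025 CPM in KO UVB. All KO UVB libraries were above WT UVB and library 3 was the highest, and the difference was 1.87 ± 0.36 (adjusted p = 0.0254), or 1.19 without library 3 (adjusted p = 0.00885). Of the 15 tested ligands and receptors of the EGF receptor family it was the 1 gene called, and Areg (1.18, adjusted p = 0.125) and Ereg (0.78, adjusted p = 0.215) did not pass the test. Lcn2, an antimicrobial protein that binds bacterial iron carriers, read 4.75, 5.22, 7.12 and 4.83 CPM in WT UVB and 17.6, 17.3, 20.3 and 6.24 CPM in KO UVB, with library 4 inside the WT UVB range (1.48 ± 0.30, adjusted p = 0.0315). Serpinb3b, an epidermal protease inhibitor with close paralogs, rose by 1.97 after UVB and by 1.85 without it. The hyaluronan synthase gene Has3 (2.45), the glutathione transferase gene Gsta4 (1.60) and the aspartic protease gene Ctse (2.92) rose, with no overlap between genotypes. Tnc, which encodes the wound matrix protein tenascin C, read 17.3 to 40.9 CPM in WT UVB and 187, 308, 370 and 20.3 CPM in KO UVB (2.92 ± 0.62, adjusted p = 0.0401). Each of these calls was lost when 1 of several libraries was left out: Epgn without WT UVB 1, 2 or 4 (adjusted p up to 0.0958), Lcn2 (0.109) and Has3 (0.0968) without WT UVB 1, 2 or 4 or KO UVB 2 or 3, and Tnc without any library but KO UVB 1 or 4 (0.139). Gsta4 lost its call without WT UVB 1, 2 or 4 or KO UVB 3 (adjusted p up to 0.073), Ctse without those or KO UVB 2 (0.0925), and Serpinb3b without any library but KO UVB 1 or 4 (0.0958).

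Within terminal differentiation, the last steps of epidermal maturation, 2 of 48 tested genes rose and 1 fell, with a median of 0.08. The ones that rose were Lce3a and Lce3b, neighbouring genes for late cornified envelope proteins known to be induced in injured skin. Lce3a read 0.0474 to 0.388 CPM in WT UVB and 2.94, 3.31, 10.4 and 0.956 CPM in KO UVB (4.28 ± 0.80, adjusted p = 0.021). Lce3b read 0 to 0.508 CPM in WT UVB and 2.19, 2.11, 11.5 and 1.18 CPM in KO UVB (4.25 ± 0.90, adjusted p = 0.0373). No KO UVB library overlapped WT UVB in either gene, and KO UVB 3 was the highest in both. The counts were low, 18 reads over the WT UVB libraries for each gene, and the Lce3a call was lost without WT UVB 1, 2 or 4 (adjusted p up to 0.0859), that of Lce3b without any library but KO UVB 1 or 4 (0.122). Their cluster neighbour Lce3d differed by 2.71 (adjusted p = 0.0564), while members of the Lce1 group lay between -0.24 and 0.33.

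Krt2, a keratin of the upper epidermal layers, moved against the stress keratins and was the 1 terminal differentiation gene that fell. It read 64.5, 45.0, 46.3 and 29.5 CPM in WT UVB and 1.24, 8.44, 3.65 and 3.69 CPM in KO UVB, with no overlap and all 4 KO UVB libraries low. The difference was -3.46 ± 0.46 (adjusted p = 0.00121, edgeR) and stayed between -4.02 and -2.97 over the 20 alternatives, past the threshold in each. Control skin held little Krt2, at 0.248 to 2.10 CPM in WT and 0.593 to 1.39 CPM in KO. The major keratins of the basal and upper layers were not called, with Krt5 at 0.03 (adjusted p = 0.969) and Krt10 at 0.14 (adjusted p = 0.85). None of 16 basal keratinocyte genes and none of 34 proliferation genes was called, beside 0.856% of all tested genes. At that share, lists of this size with no call do not stand apart from all genes. Mki67, a marker of cycling cells, read 125 to 144 CPM in WT UVB and 78.4 to 193 CPM in KO UVB.

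The promoters of 4 of the epidermal genes that rose are shown as examples of the sequence before genes that rose in the same comparison. Each line holds the 250 bases before the RefSeq start on the gene's strand in GRCm38.p6, another build than that of the counts, read 5′ to 3′ with the motif ATAAAA in capitals. Lce3a lies on chromosome 3 (92926231 to 92926480, minus strand), Lce3b on chromosome 3 (92932729 to 92932978, plus strand), Epgn on chromosome 5 (91027267 to 91027516, plus strand) and Lcn2 on chromosome 2 (32387740 to 32387989, minus strand).
Lce3a: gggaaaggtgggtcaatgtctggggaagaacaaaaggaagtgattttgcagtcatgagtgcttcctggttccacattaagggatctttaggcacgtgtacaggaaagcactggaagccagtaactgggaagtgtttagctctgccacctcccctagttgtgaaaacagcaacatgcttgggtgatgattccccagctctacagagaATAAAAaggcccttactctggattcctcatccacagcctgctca
Lce3b: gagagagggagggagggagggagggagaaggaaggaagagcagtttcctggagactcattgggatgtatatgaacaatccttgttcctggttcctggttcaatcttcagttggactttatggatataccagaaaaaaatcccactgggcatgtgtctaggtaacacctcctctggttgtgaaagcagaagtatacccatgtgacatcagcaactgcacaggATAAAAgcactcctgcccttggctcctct
Epgn: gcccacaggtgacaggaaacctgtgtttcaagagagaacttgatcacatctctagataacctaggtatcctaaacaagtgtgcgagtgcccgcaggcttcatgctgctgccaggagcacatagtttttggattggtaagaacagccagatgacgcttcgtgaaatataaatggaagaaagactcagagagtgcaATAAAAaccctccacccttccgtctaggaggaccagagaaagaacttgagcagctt
Lcn2: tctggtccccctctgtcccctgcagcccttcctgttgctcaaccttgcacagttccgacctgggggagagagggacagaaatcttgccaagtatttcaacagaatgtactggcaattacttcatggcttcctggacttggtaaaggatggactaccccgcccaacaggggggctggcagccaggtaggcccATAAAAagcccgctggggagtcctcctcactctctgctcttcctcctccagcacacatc
All 4 held ATAAAA, starting 44, 29, 56 and 59 bases before the start in the order shown. On either strand of the same 250 bases, 17% of 32851 RefSeq promoters held it. None of the 4 held the AP-1 motif TGANTCA (6.75% of promoters, either strand) or the NF-kB motif (7.25%, either strand), which says only that these letters are not in this window. The 4 promoters were picked after their letters were seen. Of the 98 called genes with an entry in the RefSeq table, 16 held ATAAAA (16.3%), and of the 55 that rose, 10 did (18.2%), close to the 17% of all promoters.

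Scd3 and Abca5, which act on lipids, fell in KO skin after UVB. Scd3, a stearoyl-CoA desaturase gene expressed in sebaceous glands, read 443, 549, 374 and 590 CPM in WT UVB and 164, 99.9, 252 and 220 CPM in KO UVB. The groups did not overlap (-1.41 ± 0.28, adjusted p = 0.0272), and the controls held 446 CPM in WT and 480 CPM in KO. Abca5, a lipid transporter gene, fell from 69.5, 83.5, 94.0 and 90.2 CPM in WT UVB to 40.6, 29.7, 29.3 and 43.5 CPM in KO UVB. Its difference was -1.23 ± 0.18 (adjusted p = 0.00203), beside 0.02 in the controls (interaction adjusted p = 0.0826), and its call was kept under every alternative. Of 22 sebaceous gland genes, Scd3 was the 1 gene called and the median was -0.11. The gland's wax synthase gene Awat2 (-0.18, adjusted p = 0.751) and the related desaturase gene Scd1 (-0.15, adjusted p = 0.774) did not pass the test. The Scd3 call was lost without WT UVB 1, 2 or 4 or KO UVB 2 (adjusted p up to 0.0925). Serpina3h, of a mouse protease inhibitor cluster with close copies (-1.81), and Apol7a, an apolipoprotein L gene with close copies (-2.10), also fell.

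Among genes of macrophages, Fcgr3 rose in KO skin after UVB. Of 25 tested monocyte and macrophage genes, 24 had a difference above 0 and the median was 0.84, but only Fcgr3 was called (4%). Fcgr3, an activating receptor for immunoglobulin G, read 60.3, 47.2, 58.7 and 54.3 CPM in WT UVB and 66.5, 136, 109 and 156 CPM in KO UVB, with library 1 just above the WT UVB range (1.08 ± 0.21, adjusted p = 0.0254). The general macrophage genes Csf1r (0.59, adjusted p = 0.204), Adgre1 (0.56, adjusted p = 0.345) and Cd68 (1.11, adjusted p = 0.0824) did not pass the test. In the controls the list's median was -0.07. Vsig4 and Fcna, which no list holds, rose: Vsig4, a complement receptor, at 0.996 to 4.36 CPM in WT UVB and 7.20 to 11.1 CPM in KO UVB, and Fcna, a ficolin of the lectin complement pathway, at 9.68 to 22.2 and 27.98 to 86.8 CPM. Ccl6, a macrophage chemokine, read 191, 85.8, 113 and 102 CPM in WT UVB and 194, 472, 540 and 329 CPM in KO UVB. Its difference was 1.64 ± 0.35 (adjusted p = 0.0368), and it was the 1 gene called of 44 chemokines and chemokine receptors, whose median was 0.40.

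Further genes, picked after their values were seen, rose as well. Fcer1g, the signalling chain shared by Fc receptors, rose by 0.94, Wfdc17, a myeloid secreted protein gene, by 1.05, and Cd209b, a lectin of macrophages, by 1.05. Ifi204 and Ifi207, interferon-inducible genes with close copies on chromosome 1, rose by 1.33 and 1.27. The adjusted p in edgeR was 0.0441 for Fcer1g, 0.0293 for Wfdc17, 0.0347 for Cd209b, 0.0254 for Ifi204 and 0.0315 for Ifi207. Of 20 alternatives, the call was lost in 13 for Fcer1g, 10 for Wfdc17, 10 for Cd209b, 9 for Ifi204 and 10 for Ifi207. With the monocyte and macrophage score of each library as a covariate, an alternative added after seeing the data, 52 genes were called in all. The score contains Fcgr3 itself. The difference went from 1.08 to 0.60 for Fcgr3 and from 1.64 to 0.75 for Ccl6, but only from 1.97 to 1.59 for Vsig4 and from 1.57 to 1.55 for Fcna. All 4 calls were lost, as were those of Lcn2, Tnc, Scd3 and Pmel, which are not in the macrophage list. The part of macrophage content in these results was not tested. The summed macrophage list was 2411 to 3571 CPM in WT UVB and 2849 to 6248 CPM in KO UVB, with KO UVB 1 inside the WT UVB range. The Fcgr3 call was lost without WT UVB 1, 2 or 4 or KO UVB 2 (adjusted p up to 0.0965), the Ccl6 call without WT UVB 2, 3 or 4 or KO UVB 2 or 3 (0.132), the Vsig4 call without WT UVB 1, 2 or 4 or KO UVB 2 or 3 (0.0943), and the Fcna call without any WT UVB library or KO UVB 2 (0.103).

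Neutrophil and cytokine genes were high in 1 KO library and not called. None of 16 tested neutrophil genes was called at an adjusted p under 0.05 by edgeR, with a median of 1.69 that became 0.69 without KO UVB 3. At an unadjusted p under 0.05 there were 12 of them, and DESeq2 called 7 and limma voom 4. Over all 17531 tested genes these counts were 2857, 658 and 1094. S100a8, an alarmin of neutrophils and stressed keratinocytes, read 4.38, 1.33, 12.02 and 3.11 CPM in WT UVB and 6.52, 9.58, 112 and 14.7 CPM in KO UVB (2.77, adjusted p = 0.151). Il1b, the inflammasome cytokine, read 5.26, 2.94, 5.96 and 8.11 CPM in WT UVB and 3.38, 5.88, 78.2 and 8.79 CPM in KO UVB. Without library 3 its difference went from 2.12 to 0.11. Il6 (0.498, 0.856, 7.16 and 0.546 CPM in KO UVB), Cxcl1 (0.846, 0.571, 14.5 and 0.729 CPM) and Ccl2 (4.03, 4.74, 72.3 and 9.06 CPM) had the same single high library. The median of 31 type I interferon response genes, none of them called, turned from 0.53 to -0.29 without KO UVB 3. Of 26 antimicrobial and acute-phase genes, 23 were above 0, the median was 1.04 (0.85 without KO UVB 3), and Lcn2 was the 1 gene called.

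In other leukocyte lists, none of 24 Langerhans, dendritic and MHC class II genes and none of 12 mast cell genes was called, beside 0.856% of all tested genes. At that share, lists of this size with no call do not stand apart from all genes.

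Among 17 tested melanocyte genes, Pmel fell in KO skin and no other passed the test. Pmel, which forms the fibrils that hold melanin, read 12.7, 10.01, 12.7 and 13.5 CPM in WT UVB and 6.07, 5.02, 3.79 and 2.96 CPM in KO UVB. The groups did not overlap (-1.46 ± 0.28, adjusted p = 0.0234), beside -1.11 without UVB (adjusted p = 0.0575). Dct, the dopachrome tautomerase of melanin synthesis, read 25.0, 24.9, 26.6 and 25.8 CPM in WT UVB and 14.1, 11.9, 11.3 and 10.3 CPM in KO UVB. These groups did not overlap either, but the difference missed the threshold (-1.10 ± 0.27, adjusted p = 0.062). The control groups spread more and did overlap, at 13.1 to 36.4 CPM in WT and 9.59 to 17.4 CPM in KO (-0.69, adjusted p = 0.304). Tyr, the rate-limiting enzyme of melanin synthesis, was low in all libraries, at 1.11 to 1.74 CPM in WT UVB and 0.501 to 0.896 CPM in KO UVB (-0.96, adjusted p = 0.297), and Tyrp1 differed by -0.61 (adjusted p = 0.379). The Pmel call was lost without WT UVB 1 or 4 or KO UVB 2 or 3 (adjusted p up to 0.0673).

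Regulators of the lineage were not called either. Mitf, the master transcription factor of melanocytes, read 26.8 to 30.5 CPM in WT UVB and 25.9 to 35.1 CPM in KO UVB (0.13 ± 0.12, adjusted p = 0.608). Sox10 differed by -0.22 (adjusted p = 0.493) and the receptor gene Kit by -0.10 (adjusted p = 0.713). Of the 17 genes of the list, 1 was called (5.88%), 5 were above 0 and the median was -0.38. DESeq2 called 3 of the 17 and limma voom 4. The summed level of the list went the other way from its median, at 297 to 330 CPM in WT UVB and 343 to 391 CPM in KO UVB. Ednrb, an endothelin receptor gene of melanocytes that vessels express as well, was the largest difference above 0, at 44.2 to 70.4 CPM in WT UVB and 86.4 to 156 CPM in KO UVB (1.16, adjusted p = 0.0616). Of 19 tested genes for signals that reach melanocytes from their surroundings edgeR called none, beside 0.856% of all tested genes. Among them were Kitl (-0.06, adjusted p = 0.785), Edn1 (0.61, adjusted p = 0.163) and Il1a (0.39, adjusted p = 0.278). At an unadjusted p under 0.05 in edgeR's test there were 7 of the 19, and DESeq2 called 4 and limma voom 4. Over all 17531 tested genes these counts were 2857, 658 and 1094.

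Apart from the receptors themselves, Tnfrsf9 alone was called in the TNF pathway lists, beside 0.856% of all tested genes. At that share, lists of 33 or 39 genes with no call do not stand apart from all genes. Of 43 tested ligands and receptors of the TNF superfamily, 3 fell and none rose, namely Tnfrsf1a, Tnfrsf1b and Tnfrsf9, with a median of 0.05. Tnfrsf9, which encodes a costimulatory receptor of T cells, lies 197 annotated genes from Tnfrsf1b and was low throughout, at 1.70 to 2.68 CPM in WT UVB and 0.547 to 1.14 CPM in KO UVB (-1.18 ± 0.26, adjusted p = 0.0404). Its call was lost without any library but KO UVB 1 or 4 (adjusted p up to 0.116). The ligand gene Tnf read 1.89, 1.66, 0.824 and 0.778 CPM in WT UVB and 0.498, 0.913, 3.65 and 1.59 CPM in KO UVB (0.37, adjusted p = 0.727). Lta, the second ligand of both receptors, read 0.556 to 1.25 and 0.171 to 0.956 CPM (-0.66, adjusted p = 0.467). Of 33 genes for receptor adaptors and death effectors none was called (median -0.03), and of 39 NF-kB subunits and feedback targets none was called (median 0.05). Of the latter, 10 had an unadjusted p under 0.05, and DESeq2 called 2 and limma voom 3, beside 2857, 658 and 1094 of all 17531 tested genes. The NF-kB inhibitor gene Nfkbia, itself a target of the pathway, read 73.5 to 85.8 CPM in WT UVB and 86.2 to 105 CPM in KO UVB, without overlap (0.23, adjusted p = 0.445). Tnfaip3, which encodes a feedback enzyme of the pathway, differed by -0.04 (adjusted p = 0.953).

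For the DNA damage response, no genotype difference was detectable at this depth. None of 30 tested p53 and DNA damage genes was called, beside 0.856% of all tested genes, and the median was -0.0030. At an unadjusted p under 0.05 there were 3 genes, beside 2857 of all 17531 tested genes. DESeq2 and limma voom called none of the 30. Cdkn1a, the p53 target that halts the cell cycle, read 311 to 348 CPM in WT UVB and 272 to 323 CPM in KO UVB (-0.12 ± 0.10, adjusted p = 0.557), both above the 153 CPM of either control group. Hair follicle genes of the growth phase had the lowest median of the 37 lists, at -1.49, with none of 33 called after UVB and 24 lower in the control contrast. Their summed level was 144 to 349 CPM in WT UVB, with library 2 at 349 and the others at 144 to 161 CPM, and 114 to 151 CPM in KO UVB. Without WT UVB 2 the median was -0.32. Muscle genes of the thin muscle layer under the dermis had a median of -0.38 with none of 29 called, and their summed level ran from 24583 to 35704 CPM in WT UVB and 18759 to 29049 CPM in KO UVB. In the matrix and vessel lists, Ctsl, a lysosomal protease gene (0.53 ± 0.11, adjusted p = 0.0342), and Plvap, a protein of fenestrated vessels (0.58 ± 0.13, adjusted p = 0.0413), rose. The Ctsl call was lost in 10 and the Plvap call in 11 of 20 alternatives, most single left-out libraries included (adjusted p up to 0.124 and 0.148).

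**Figure D5:**
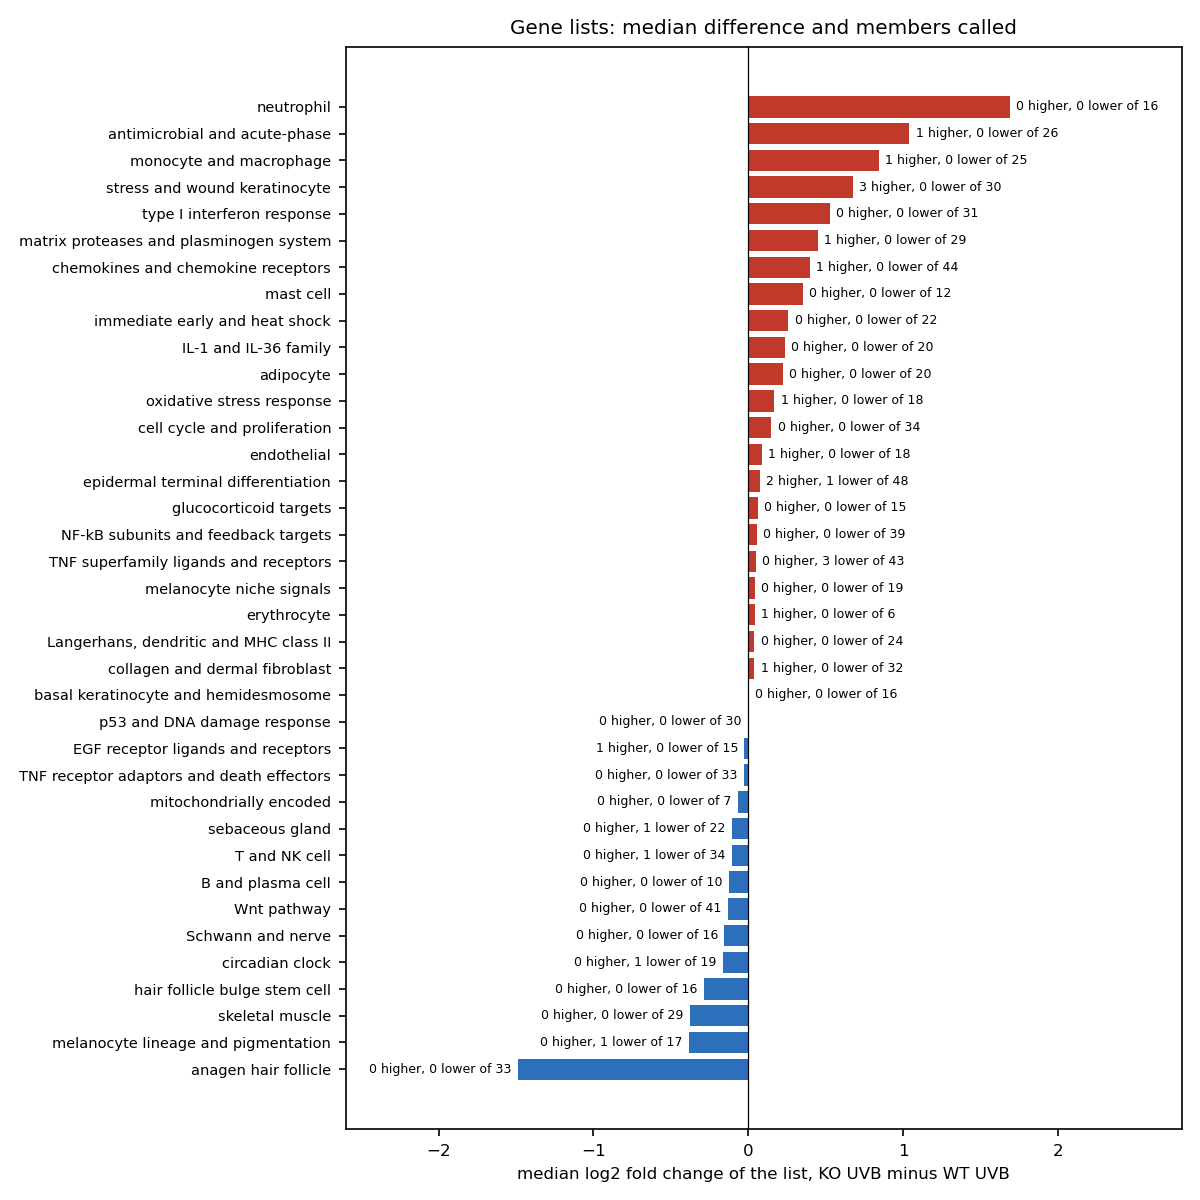
Median log2 fold change of KO UVB minus WT UVB (x axis) for the tested members of each of 37 gene lists (y axis), with the number of members called higher and lower. Neutrophil genes have the highest median (1.69) and growth phase hair follicle genes the lowest (-1.49), both with no member called, and stress and wound keratinocyte genes have the most members called higher (3).

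Over the 21 lists with no member called by edgeR, 100 of 483 tested members had an unadjusted p under 0.05 in edgeR's test. DESeq2 called 26 of the 483 and limma voom 32. Over all 17531 tested genes, 2857 had an unadjusted p under 0.05, and DESeq2 called 658 and limma voom 1094. These lists were pooled for having no edgeR call, and they were not alike. An unadjusted p under 0.05 in edgeR's test was found for 12 of 16 neutrophil genes and 16 of 33 growth phase hair follicle genes. It was also found for 7 of 19 melanocyte signal genes. For the 34 proliferation, 20 adipocyte, 12 mast cell and 24 Langerhans, dendritic and MHC class II genes it was found for none.

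Where the genotype difference itself changed with UVB, the 4 genes had no role in common in the lists used. Hba-a2 differed by 7.21 after UVB and 0.47 without it (interaction 6.74, adjusted p = 0.00255). Tnik read 27.9, 33.2, 29.7 and 29.2 CPM in WT UVB and 23.4, 23.2, 20.7 and 21.4 CPM in KO UVB, and so fell after UVB (-0.44 ± 0.07, adjusted p = 0.00994). Without UVB it rose, with a mean of 35.2 CPM in WT and 43.5 CPM in KO (0.30, adjusted p = 0.046). Pinlyp, a phospholipase A2 inhibitor gene, and Angptl8, a lipoprotein lipase regulator, were called by the interaction alone, with falls in the controls (-2.19 and -3.73) and no call after UVB (0.33 and 0.97). The Tnik interaction was lost without KO control 4 (adjusted p = 0.0911), as was that of Angptl8 (0.0639).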

How the data were processed

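RNA was extracted from whole dorsal skin with Trizol after grinding in liquid nitrogen, and poly(A) RNA went into strand-specific libraries, per the labels' protocols. The authors deposited read counts per gene for each library, made with STAR on GRCm39, per the submitters' processing notes. The sources used here do not give the STAR version or the annotation. The reverse-strand count of each library was used, as it held 95.7% of stranded reads. A combined table holds 17 value columns that match no single sample and were not used. Of 55359 gene IDs, 52083 matched a symbol, and unnamed IDs held 1.23% of reads. Gene order came from an annotation of GRCm38, so no coordinates of it are printed.

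edgeR 4.0.16 in R 4.3.3 fitted the 4 groups together, with its expression filter (17531 genes kept, holding 99.9% of reads), trimmed-mean normalisation and a robust quasi-likelihood test. P-values were adjusted by Benjamini-Hochberg over all genes tested. Library totals of 18102925 to 23200649 reads in the UVB groups, with a biological coefficient of variation of 0.18, set the precision. Library pairs within a group differed by more than counting noise (chi-square per degree of freedom from 13.6), so none was treated as a duplicate. The fit was tested on simulated data. Alternatives used DESeq2 1.42.0, limma 3.58.1, other normalisations and filters, unstranded counts, a replicate block, covariates and leaving out libraries.

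Genes and lists were chosen with earlier results of these data known. The genes named are both receptors, the 15 largest called differences each way with a mean count of at least 50, the 3 smallest adjusted p-values in each list, called genes within 20 annotated genes of a receptor, a set of pathway genes, and 8 genes each for the shared and interaction contrasts. Krt6b, Krt17, Lce3d, Areg, Ereg, Ednrb, Awat2, Scd1, Cd68, Csf1r, Adgre1, Eno1, Hba-a1, Masp2, Pinlyp and Angptl8, the genes said to be picked in the text, and the promoters shown were chosen after their values were seen. A result for 1 gene that this rule names is not reported here.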

Additional observations from a re-analysis of the deposited data

Results flagged for a closer look

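Within each group of 4 libraries, a library was singled out when its gap to the nearest other was too large a part of the group's range by Dixon's test at the 95% level. Of 218 groups tested, 25 met this. Chance gives about 1 in 20 only for independent, normally spread values. These were CPM of genes and lists that move together, some picked after their values were seen, so the count cannot be set against that rate. KO UVB 3 accounted for 8 and KO UVB 4 for 4.

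KO UVB 3 was far above the other KO UVB libraries in Il1b (78.2 CPM), S100a8 (112 CPM), Ccl2 (72.3 CPM), Cxcl1 (14.5 CPM), Il6 (7.16 CPM), Epgn (39.3 CPM) and Lce3b (11.5 CPM). Its summed neutrophil genes stood apart too, at 611 CPM. KO UVB 4 was far below the others in Krt6a (237 CPM), Krt16 (201 CPM) and Krt6b (233 CPM), and in the summed stress and wound keratinocyte genes (2463 CPM). What set these libraries apart was not tested.

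KO UVB 1 was lowest in summed mast cell genes (243 CPM) and highest in Gm436 (94.1 CPM) and in summed growth phase hair follicle genes (151 CPM). KO UVB 2 was highest in Vsig4 (11.1 CPM). WT UVB 2 was highest in summed growth phase hair follicle genes (349 CPM), Cdkn1a (348 CPM), Mitf (30.5 CPM) and Cd300ld3 (1.71 CPM). WT UVB 1 was highest in Lta (1.25 CPM) and summed Schwann and nerve genes (717 CPM), and WT UVB 4 in Tyrp1 (24.4 CPM). WT UVB 3 held the 1 read of Zfp990 in its group (0.0485 CPM) and had the lowest share of reads outside genes (7.25%).

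The genotype difference changed with UVB for 4 genes by the interaction test of edgeR. The difference after UVB minus that without was 6.74 for Hba-a2, 2.53 for Pinlyp, 4.69 for Angptl8 and -0.74 for Tnik.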

How the results depend on the processing

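The count of genes called after UVB (150) was 658 with DESeq2, 1094 with limma voom, 889 with the muscle score as covariate, 304 without KO UVB 3 and 4, 79 with the 8 UVB libraries alone and 52 with the macrophage score as covariate, which was added after seeing the data. Leaving out 1 UVB library gave 58 to 475. The control contrast (297) gave 452 with DESeq2, 590 with limma voom, 93 with a mean count of at least 100, and 158 to 279 without 1 control library. The interaction (4) gave 210 with DESeq2, 438 with limma voom, 22 with no filter, and 2 to 109 without 1 library. The replicate numbers did not pair the libraries, as the correlations of same-numbered deviations between WT UVB and KO UVB ran from -0.40 to 0.001. With the replicate block, 77 genes were called after UVB and 7 by the interaction. Near Tnfrsf1b, itself included, 32 genes were called, and 19 to 67 over the alternatives, against 118 elsewhere and 28 to 1027. Of 58 called genes followed over up to 20 alternatives, 16 stayed called in each, 42 lost the call in at least 1 and none reversed. Of 44 uncalled genes followed, 9 were called in at least 1. Where counts moved, the cause was not tested.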

Other observations

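In consecutive windows of 50 tested genes along the annotation, 246 of 340 windows held no gene called after UVB, 68 held 1, 15 held 2 and 6 held 3. The 5 windows with 4 or more were 3 adjoining ones on chromosome 4, with 15, 5 and 4 calls, and 1 each on chromosomes 15 and 8. The window on chromosome 15 held Krt6a and Krt2, neither called without UVB. The window on chromosome 8 held Hgsnat, a lysosomal acetyltransferase gene that rose by 1.18 (adjusted p = 0.000886, edgeR), and Nudc-ps1, with 6 reads in WT UVB and 343 in KO UVB. Of its 4 calls, 2 were shared with the control contrast, Hgsnat among them (0.63, adjusted p = 0.0472, edgeR). The windows on either side of it held 3 and 2 calls. Over chromosome 8 as a whole, 17 of 903 tested genes were called (1.88%). The genes named in these windows were picked after their values were seen.

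Among other genes picked after their values were seen, the oxygen-binding globin gene Cygb (0.77), the extracellular superoxide dismutase gene Sod3 (0.68) and the prostaglandin D synthase gene Hpgds (0.64) rose in KO skin after UVB. The growth factor gene Ptn fell (-0.58).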
